A study of Homo sapiens with 16 samples.

Results

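The transcripts described here encode the 8 BH3-only proteins BIM (BCL2L11), PUMA (BBC3), NOXA (PMAIP1), BID, BAD, BIK, BMF and HRK, and the effectors BAX and BAK1 on which they act. Each symbol was matched to 1 Ensembl gene of GENCODE release 44, which gave 10 genes of the 43836 in the table of counts. RNA-seq was performed on 16 libraries of KG-1, an established human acute myeloid leukemia (AML) cell line, 2 for each of 8 conditions. KG-1-Control cells carried a non-target shRNA, and FOXM1-KD cells an shRNA against the proliferation-associated transcription factor FOXM1. Both were stably transduced with lentiviral pLKO.1 vectors and selected with puromycin, listed at 4 µg/mL, so that the control cells shared the vector and the selection. No source names more than 1 transduced population of each, and an effect of the shRNA and a difference between the 2 populations cannot be told apart. Control cells received the solvent DMSO (0.3%), 50 µM STL427944, 0.75 µM AraC (cytarabine) or 100 nM venetoclax for 48 h, or 30 µM MK-2206 for 24 h. FOXM1-KD cells received DMSO, AraC or venetoclax at the same concentrations for 48 h. MK-2206 is an allosteric inhibitor of AKT, AraC a nucleoside analog that blocks DNA synthesis, and venetoclax a drug that occupies the groove of BCL2 where BH3-only proteins bind.

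BH3-only proteins start the mitochondrial pathway of apoptosis. BIM, PUMA and the cleaved form of BID bind every antiapoptotic BCL2 protein and can also engage BAX and BAK directly, whereas BAD, BIK, BMF, HRK and NOXA mainly occupy antiapoptotic partners, NOXA chiefly MCL1 and BAD chiefly BCL2, BCL-XL and BCL-W. Once freed or activated, BAX and BAK form pores in the outer mitochondrial membrane, cytochrome c leaves, and caspases follow. Several of the genes are controlled at transcription: FOXO factors, which AKT holds in the cytoplasm, are known inducers of BCL2L11 and BBC3, and ATF4 of PMAIP1. Other steps, such as cleavage of BID and phosphorylation of BAD and BIM, are not visible in RNA.

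BCL2L11 (chromosome 2 of GRCh38, 111119378 to 111168444, plus strand) and PMAIP1 (chromosome 18, 59899996 to 59904305, plus strand) are the members that changed most with MK-2206 apart from the sparsely counted BIK and HRK, and the 250 bases before their RefSeq starts are printed for that reason. The sequences are those of RefSeq for GRCh38.p14, chr2:111120664-111120913 and chr18:59899746-59899995, both on the plus strand. Capitals mark the forkhead core GTAAACA in BCL2L11 and, in PMAIP1, the reverse complement of TGACGT, the core of the cAMP response element.
BCL2L11: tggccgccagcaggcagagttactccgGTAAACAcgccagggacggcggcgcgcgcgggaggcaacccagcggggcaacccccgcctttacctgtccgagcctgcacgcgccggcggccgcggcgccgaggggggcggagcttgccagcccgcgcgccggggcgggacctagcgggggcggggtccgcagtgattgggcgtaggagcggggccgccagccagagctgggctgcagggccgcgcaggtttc
PMAIP1: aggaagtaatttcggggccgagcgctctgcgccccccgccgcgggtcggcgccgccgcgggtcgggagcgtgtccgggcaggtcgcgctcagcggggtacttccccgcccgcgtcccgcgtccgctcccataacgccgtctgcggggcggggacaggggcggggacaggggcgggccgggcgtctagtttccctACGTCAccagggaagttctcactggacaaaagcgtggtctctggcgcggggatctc
The forkhead core lies 216 bases before the BCL2L11 start. On both strands it occurs in 2.98% of 34943 such windows of 250 bases and, of the 9 members with a window, in BCL2L11 alone. TGACGT lies 50 bases before the PMAIP1 start, occurs in 7.09% of windows and was also found in both windows of BAD. The GC box GGGCGG, present in 42.5% of windows, occurs 3 times in BCL2L11 and 4 times in PMAIP1. The letters of these motifs do not overlap in the windows printed. A match describes the letters only. BIK has no window here.

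The other members lie, in GRCh38, at chromosome 19 from 47220822 to 47232766 (BBC3, minus strand), chromosome 22 from 17734138 to 17774770 (BID, minus), chromosome 11 from 64269830 to 64284704 (BAD, minus), chromosome 22 from 43110750 to 43129712 (BIK, plus), chromosome 15 from 40087890 to 40108892 (BMF, minus), chromosome 12 from 116856144 to 116881441 (HRK, minus), chromosome 19 from 48954815 to 48961798 (BAX, plus) and chromosome 6 from 33572547 to 33580293 (BAK1, minus). By that annotation 5 members overlap a gene on the other strand: BCL2L11 with MIR4435-2HG, BBC3 with MIR3190, BAD with GPR137, BMF with BMF-AS1 and BAK1 with GGNBP1. The strand setting of the counting was not given in the sources used here, so reads of these genes and of their partners cannot be told apart.

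Counts of FOXM1, the targeted gene, were 2554 and 2515 with DMSO in control cells and 923 and 1551 in the FOXM1-KD libraries with DMSO. Counts were 3497 and 3284 with AraC in control cells and 2057 and 2161 in FOXM1-KD cells, and 1883 and 2599 with venetoclax in control cells and 740 and 955 in FOXM1-KD cells. STL427944 libraries had 2556 and 1618 counts and MK-2206 libraries 152 and 171. These counts are not scaled for library totals, which differed. After scaling, the log2 fold change of FOXM1 against DMSO in control cells was -2.68 with MK-2206 and -0.15 with STL427944. The knockdown was therefore partial, with log2 fold changes of -1.08 with DMSO, -0.56 with AraC and -1.20 with venetoclax, and FOXM1 under AraC stayed short of a 2-fold difference.

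Library totals ran from 7351755 to 21362546 counts, with the MK-2206 libraries the 2 smallest, and mitochondrial transcripts took 6.68% and 18.4% of the counts in those 2 against 1.32% to 3.05% elsewhere. The markers of the line did not stay at 1 level: CD34, which defines KG-1 cells, had 25160 and 26713 counts with DMSO in control cells, 7 and 18 after MK-2206 and 0 to 4 in the 6 FOXM1-KD libraries. The 9 KG-1 myeloblast markers summed to 3750 and 3770 CPM (counts per 1000000 of the scaled library total) with DMSO in control cells, to 338 and 395 after MK-2206 and to between 1890 and 2770 in FOXM1-KD cells. These markers did not move together in FOXM1-KD cells with DMSO. Means of SPN (478 to 937 CPM), CD33 (38.1 to 92.1), SPI1 (112 to 168) and MYB (396 to 537) were higher than in control cells. Those of CD34, HLA-DRA, FGFR1, PTPRC and ANPEP were lower. Of 5 granulocyte-precursor markers 2 were above 3 counts with DMSO in control cells, with a sum of 13.0 and 13.4 CPM and ELANE at 0, and all 5 were in FOXM1-KD cells, with sums from 1970 to 15800 CPM. After MK-2206 they summed to 421 and 603 CPM, most of it MPO at a mean of 476 CPM. ELANE, AZU1 and PRTN3 rose to means of 18.7, 8.28 and 4.21 CPM, and CTSG fell from 10.9 to 5.15 CPM. The 4 monocyte markers summed to between 6.24 and 41.1 CPM in control cells of every treatment and to between 552 and 2710 CPM in FOXM1-KD cells, while T cell, B cell, erythroid and epithelial or stromal markers summed to at most 8.65 CPM in any library. LYZ made up most of the monocyte sums in FOXM1-KD cells. With DMSO it averaged 919 CPM there, against 5.28 for CSF1R, 0.581 for CD14 and 0 for FCGR3A. The part of these differences in the members' changes was not tested. In the comparisons with MK-2206 or FOXM1-KD, fewer cells of a kind and less RNA per cell cannot be told apart.

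Among control libraries given DMSO, STL427944 or venetoclax, 2 pairs stood together across treatments. Over 12224 genes the second STL427944 library correlated most with the first venetoclax library (r = 0.991) and less with its own replicate (r = 0.966), and the second venetoclax library correlated most with the first STL427944 library (r = 0.994) and at r = 0.963 with its own replicate. The first STL427944 library and the first DMSO library correlated most with each other (r = 0.997). The 2 DMSO libraries correlated at r = 0.996. These correlations are across genes, which are not independent replicates. Libraries are named here by their labels, and whether the labels of the 4 STL427944 and venetoclax libraries were exchanged was not tested. Every value given for STL427944 or for venetoclax in control cells depends on them. BBC3, BCL2L11 and BMF followed the same split, and calls of members that rest on these libraries are given with both and with 1 of them left out.

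In control cells given DMSO, BAX and BAK1 were the most abundant of the 10 transcripts per length, at 22.2 and 20.9 CPM per kilobase of exon. PMAIP1 and BAD followed with 14.8 and 11.8, then BID with 7.96, BMF with 4.40, BCL2L11 with 2.22 and BBC3 with 1.83 CPM per kilobase. BIK and HRK were close to undetected, with 1 count in each library for BIK and 0 and 2 for HRK. After MK-2206 the order was another: PMAIP1 stood at 658 CPM per kilobase, followed by BCL2L11 at 32.6 and BIK at 25.7, all above BAX at 14.8 and BAK1 at 15.7. In FOXM1-KD cells with AraC PMAIP1 also led, at 66.6 CPM per kilobase.

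**Figure D1:**
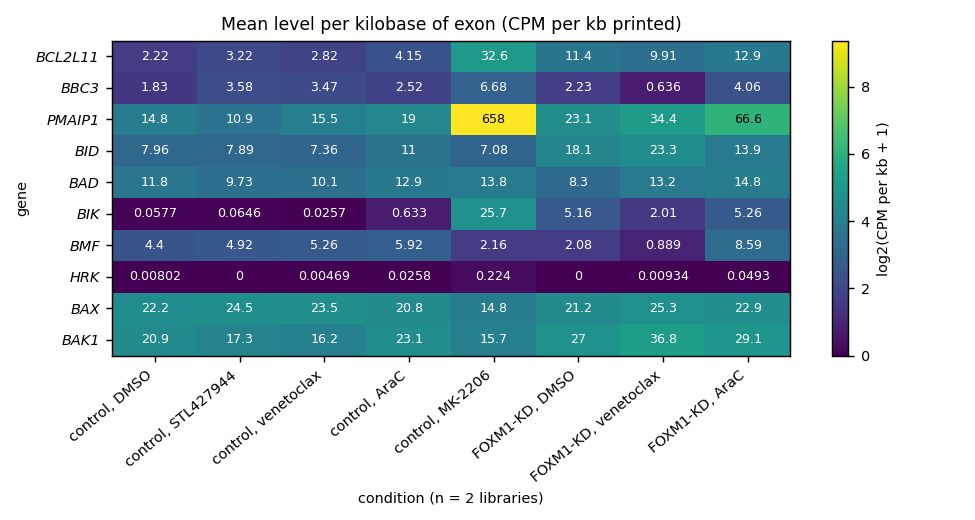
Mean level of each member (rows) in each condition (columns, n = 2 libraries each) in CPM per kilobase of merged exons; the color gives log2(CPM per kb + 1) and each cell prints CPM per kb. PMAIP1 after MK-2206 is the highest cell at 658, and HRK stays at or below 0.224 in every condition.

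Between their lowest and highest condition means the effectors BAX and BAK1 spanned 1.71-fold and 2.35-fold and BAD 1.78-fold, against 14.7-fold for BCL2L11, 10.5-fold for BBC3, 9.66-fold for BMF and 60.2-fold for PMAIP1. BID lay between, at 3.29-fold.

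**Figure D2:**
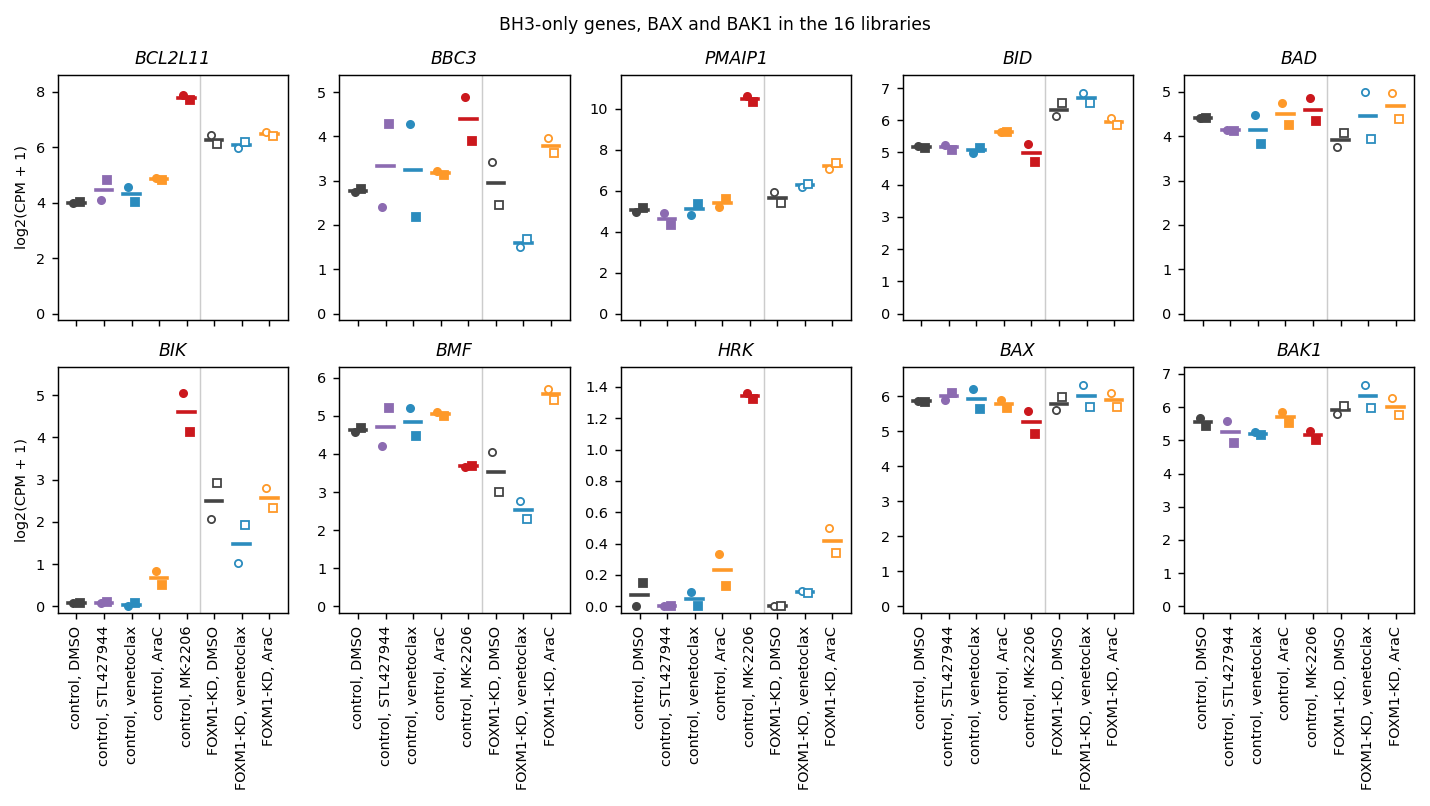
Level of each of the 10 members in all 16 libraries as log2(CPM + 1), 1 panel per gene with its own vertical scale; circles are replicate 1, squares replicate 2, horizontal bars the mean of 2 libraries, open symbols FOXM1-KD cells. BCL2L11 lies between 60.9 and 91.4 CPM in the 6 FOXM1-KD libraries, above every control library except those given MK-2206.

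The first comparison asked how the members responded when AKT was inhibited. MK-2206 raised 5 of the 10 members, all of them BH3-only genes (BCL2L11, BBC3, PMAIP1, BIK and HRK), and none fell by the 2-fold threshold. A member was called changed at a 2-fold or larger difference with an adjusted p below 0.1 in edgeR's quasi-likelihood test over all genes. By that rule 44.0% of 28905 genes tested changed, 26.0% higher and 17.9% lower, so these 5 stood among many genes. The median log2 fold change was 1.10 over the members and 1.03 over all genes tested. The latter was 0.82 when libraries were scaled by totals alone and 1.11 under DESeq2's size factors. Every gene with a count entered it, sparse ones included, and whether it is a baseline for the members was not tested. Fold changes below are not shifted by it. Read against it, BBC3 alone of the 5 would be under 2-fold higher, and BID, BMF, BAX and BAK1 would be more than 2-fold lower. Treatment time differed with the drug, at 24 h for MK-2206 and 48 h for DMSO, and the 2 cannot be told apart.

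BCL2L11 stood at 14.9 and 15.1 CPM with DMSO and at 235 and 205 CPM with MK-2206. Both treated libraries were far above both controls, a log2 fold change of 3.95 (SE, the standard error of the fit, 0.27, adjusted p = 3.07e-37). BBC3, whose product PUMA is the other broad binder, rose from 5.70 and 5.99 CPM to 28.7 and 13.9 CPM. The treated libraries differed by more than the controls did and did not overlap them, and the log2 fold change was 1.92 (SE 0.33, adjusted p = 4.17e-08). Left-out libraries moved it between 1.29 and 2.33. BID, in contrast, was at 35.9 and 34.4 CPM with DMSO and 37.3 and 25.3 CPM with MK-2206. The groups overlapped, with a log2 fold change of -0.11 (SE 0.29, adjusted p = 0.765).

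PMAIP1 showed the largest level of any member. It had 549 and 627 counts with DMSO and 11027 and 11277 with MK-2206 in libraries of lower total, or 30.1 and 34.4 against 1570 and 1300 CPM. The log2 fold change was 5.54 (SE 0.24, adjusted p = 2.24e-81), and it stayed between 5.38 and 5.66 with each library left out. The antiapoptotic partner of NOXA, MCL1, also rose, from 143 ± 4.86 to 1020 ± 33.7 CPM (SD, n = 2; log2 fold change 2.89, SE 0.24, adjusted p = 4.13e-28). BIK had 1 count in each DMSO library and 226 and 144 after MK-2206. The ratio was 431 with a 95% counting interval of 118 to 3570, and the call had an adjusted p of 5.47e-50. HRK moved from 0 and 2 counts to 11 and 13 counts, a ratio of 27.9 with a counting interval of 6.94 to 244 (adjusted p = 2.87e-05). Its level of 1.54 ± 0.0485 CPM (SD, n = 2) was still the lowest of the members after MK-2206, also per length.

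BMF, a sensitizer bound to the cytoskeleton in resting cells, went the other way. Its levels were 23.0 and 24.9 CPM with DMSO and 11.7 and 11.8 CPM with MK-2206, without overlap. The log2 fold change of -0.96 (SE 0.31, adjusted p = 0.00638) stopped short of the 2-fold threshold. With total counts only it was -1.18 and with all 16 libraries in 1 fit -1.01, and both passed. BAD, at 20.2 and 20.2 CPM against 27.9 and 19.3 CPM, overlapped between the groups (log2 fold change 0.29, adjusted p = 0.462). The effectors BAX (57.9 and 56.8 CPM against 47.0 and 29.5) and BAK1 (50.0 and 42.3 CPM against 38.0 and 31.4) were lower in both treated libraries. Their log2 fold changes of -0.52 (adjusted p = 0.131) and -0.34 (adjusted p = 0.335) did not pass.

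Of 8 BCL2 family partners tested, MCL1 was called higher and BCL2L1, BNIP3L and BOK lower after MK-2206. BCL2L1, which encodes BCL-XL, fell by 2.02 on the log2 scale (SE 0.31, adjusted p = 6.94e-10). Among 24 inducers of the members and other targets of those inducers, 9 rose and 3 fell. DDIT3, which encodes the stress factor CHOP, rose from 6.64 ± 0.0889 to 497 ± 153 CPM (SD, n = 2), a log2 change of 6.30 (SE 0.27, adjusted p = 1.58e-81), and ATF4 rose by 2.02 on that scale (SE 0.23, adjusted p = 7.97e-17). Of the FOXO factors, FOXO4 RNA rose from 20.4 ± 2.98 to 42.5 ± 5.95 CPM (SD, n = 2; log2 fold change 1.13, SE 0.29, adjusted p = 0.000409). FOXO1 RNA was at 46.1 ± 6.36 and 83.2 ± 20.7 CPM (SD, n = 2), and its log2 fold change of 0.92 (SE 0.28, adjusted p = 0.00327) was under 2-fold. That of FOXO3 RNA was 0.23 (adjusted p = 0.465). In the mitochondrial pathway 4 of 16 genes rose (CYCS, DIABLO, DYNLL1 and ENDOG) and 4 fell (AIFM1, CASP8, VDAC1 and VDAC3).

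**Figure D3:**
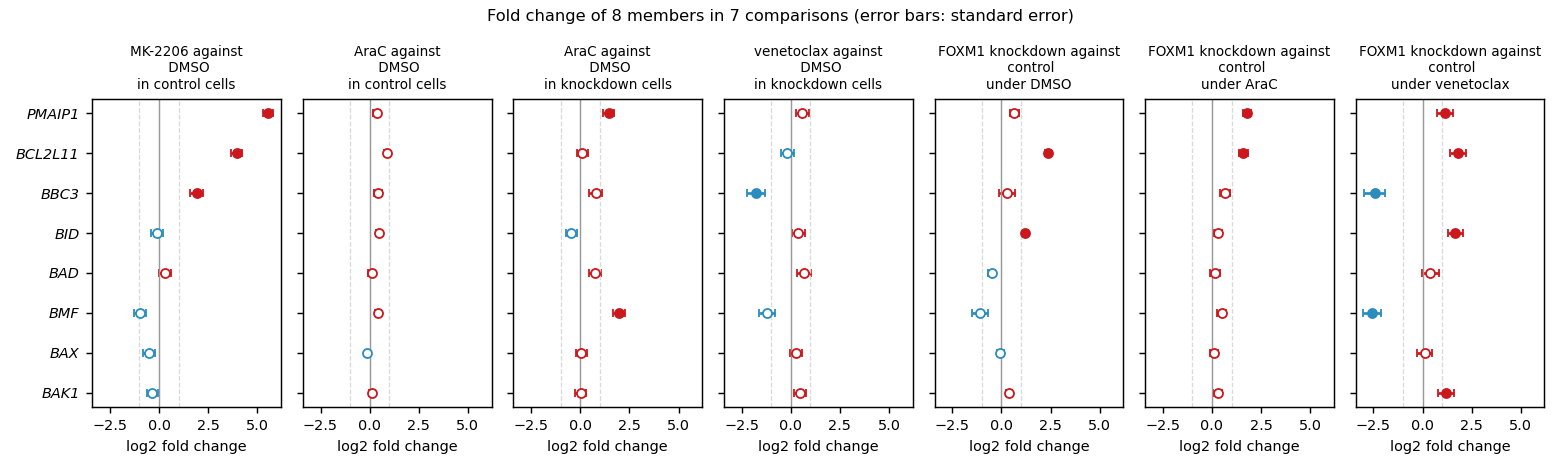
Log2 fold change (horizontal axis, edgeR, bars 1 standard error either side) of the 8 members with higher counts in 7 comparisons; filled symbols were called, open symbols were not, red is higher and blue lower in the group named first, and dashed lines mark 2-fold. PMAIP1 and BCL2L11 lie at 5.54 and 3.95 with MK-2206, while BAX stays within the dashed lines in all panels.

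FOXM1-KD was set against KG-1-Control with DMSO, with AraC and with venetoclax. With DMSO 3 members were called higher (BCL2L11, BID and BIK) and none lower, where 25.1% of 23274 genes were called, 11.3% higher and 13.7% lower. AraC gave 3 higher (BCL2L11, PMAIP1 and BIK), against 29.3% of 24653 genes called, 15.2% higher and 14.0% lower. Venetoclax gave 5 higher (BCL2L11, PMAIP1, BID, BIK and BAK1) and 2 lower (BBC3 and BMF), against 24.3% of 24947 genes called, 10.8% higher and 13.5% lower. Of these 7 calls 5 remained without the first venetoclax control library and 6 without the second. The members' median log2 fold changes were 0.33, 0.58 and 1.07, and those of all genes -0.03, 0.08 and 0.11. Each of the 3 comparisons has its own libraries on both sides, but all set the same FOXM1-KD against the same control cells.

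BCL2L11 was called higher in FOXM1-KD cells under each treatment. With DMSO it stood at 85.4 and 68.3 CPM against 14.9 and 15.1 CPM in control cells, a log2 fold change of 2.37 (SE 0.15, adjusted p = 0.00243). With AraC it was at 91.4 and 83.1 against 28.8 and 27.1 CPM (log2 fold change 1.60, SE 0.22, adjusted p = 9.77e-12). With venetoclax it was at 60.9 and 72.7 against 22.8 and 15.3 CPM (log2 fold change 1.81, SE 0.41, adjusted p = 0.00014), and the log2 fold change was 2.12 and 1.55 without the first and the second control library. In none of the 3 did FOXM1-KD and control libraries overlap, and no left-out library ended any of these calls. Within FOXM1-KD cells neither AraC nor venetoclax moved BCL2L11, with log2 fold changes against DMSO of 0.11 (adjusted p = 0.838) and -0.18 (adjusted p = 0.900).

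BID, the member that links death receptors to mitochondria through its cleavage by caspase-8, was also higher in FOXM1-KD cells. With DMSO it was at 69.6 and 90.8 CPM against 35.9 and 34.4 (log2 fold change 1.20, SE 0.17, adjusted p = 0.0129). That call was lost without either DMSO control library (adjusted p = 0.105 and 0.115), and without the second FOXM1-KD library the log2 fold change was 0.98. With venetoclax BID was at 114 and 91.9 CPM against 30.9 and 34.2 (log2 fold change 1.66, SE 0.39, adjusted p = 0.00031). It stayed called without the first and the second of these control libraries, at 1.58 (adjusted p = 0.0150) and 1.73 (adjusted p = 0.00739). With AraC the libraries still did not overlap, at 66.4 and 56.5 against 49.2 and 48.2 CPM, but the log2 fold change of 0.30 (SE 0.22, adjusted p = 0.324) did not pass.

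The sign of the BBC3 log2 fold change differed between treatments, but BBC3 was called with venetoclax alone. With DMSO FOXM1-KD libraries, at 9.73 and 4.48 CPM, enclosed the control values of 5.70 and 5.99 (log2 fold change 0.29, adjusted p = 0.613). With AraC they were at 14.6 and 11.3 CPM, above 8.32 and 7.70, and the log2 fold change of 0.65 (SE 0.25, adjusted p = 0.0256) was under 2-fold. With venetoclax they fell to 1.84 and 2.21 CPM, from 27 and 37 counts, below the control libraries at 18.6 and 3.51 CPM. The log2 fold change was -2.44 (SE 0.53, adjusted p = 9.48e-05). It was -0.80 (adjusted p = 0.492) without the first venetoclax control library, which is 1 of those that stood with another treatment, and -3.20 (adjusted p = 1.71e-07) without the second.

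PMAIP1 was called higher in FOXM1-KD cells with AraC, at 131 and 159 CPM against 35.9 and 47.3 CPM (log2 fold change 1.77, SE 0.21, adjusted p = 8.97e-16). With venetoclax it was at 72.5 and 77.7 against 27.5 and 40.2 CPM, and its log2 fold change of 1.15 (SE 0.40, adjusted p = 0.0227) lost the call without the first venetoclax control library (0.89, adjusted p = 0.259), not without the second (1.44, adjusted p = 0.0320), and lost it without the first or second FOXM1-KD library (adjusted p = 0.165 and 0.234). With DMSO it was at 60.1 and 41.0 against 30.1 and 34.4 CPM. These groups did not overlap, but the log2 fold change of 0.66 had an adjusted p of 0.102.

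BIK was near 0 in control cells and present in all 6 FOXM1-KD libraries. With DMSO it had 61 and 125 counts against 1 and 1, a ratio of 89.5 with a 95% counting interval of 24.4 to 745. With venetoclax it had 15 and 47 counts against 0 and 1, a ratio of 71.2 with an interval of 12.3 to 2860. With AraC it had 101 and 77 counts against 15 and 9, a log2 fold change of 3.01 (SE 0.39, adjusted p = 1.18e-15). Adjusted p-values with DMSO and venetoclax were 0.00682 and 5.39e-07, and the latter was 0.000104 and 3.41e-05 without the first and the second venetoclax control library. HRK stayed at 0 counts in both FOXM1-KD libraries with DMSO, which with a floor of 3 counts per library allows no fold against the 0 and 2 counts of the control.

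BMF was lower in FOXM1-KD cells with venetoclax, at 5.81 and 3.88 CPM against 35.9 and 21.4 CPM (log2 fold change -2.56, SE 0.46, adjusted p = 1.09e-06). The call held without the first control library (-2.15, adjusted p = 0.000395) and without the second (-2.90, adjusted p = 3.01e-07). With DMSO it was at 15.7 and 6.96 CPM against 23.0 and 24.9 CPM, also without overlap, and its log2 fold change of -1.08 (SE 0.40) had an adjusted p of 0.131. DESeq2, filterByExpr, total counts only and all 16 libraries in 1 fit called it, with adjusted p-values of 0.00846, 0.0598, 0.0471 and 0.0387, as did leaving out the first FOXM1-KD library (-1.80, adjusted p = 0.0203). With AraC, however, BMF in FOXM1-KD cells lay above the control, at 51.5 and 42.1 against 33.4 and 31.0 CPM (log2 fold change 0.50, adjusted p = 0.0726). BAD overlapped between FOXM1-KD and control with AraC and with venetoclax, and with DMSO was at 12.5 and 15.8 against 20.2 and 20.2 CPM (log2 fold change -0.50, adjusted p = 0.116).

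Of the effectors, BAX had log2 fold changes of -0.05, 0.10 and 0.11 with DMSO, AraC and venetoclax, with adjusted p-values of 0.823, 0.745 and 0.870. The last was 0.42 (adjusted p = 0.707) and -0.17 (adjusted p = 0.832) without the first and the second venetoclax control library. BAK1 was at 55.0 and 64.3 CPM in FOXM1-KD cells with DMSO against 50.0 and 42.3 (log2 fold change 0.38, adjusted p = 0.157). With AraC the groups overlapped (log2 fold change 0.29, adjusted p = 0.324). With venetoclax it was at 100 and 62.5 against 37.1 and 34.6 CPM (log2 fold change 1.18, SE 0.40, adjusted p = 0.0175), and the call was lost without the first FOXM1-KD library (0.80, adjusted p = 0.481) or the second control library (1.12, adjusted p = 0.116), and held without the first control library (1.22, adjusted p = 0.0806).

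Of the 24 inducers and other targets of those inducers, 4 were called higher and 8 lower in FOXM1-KD cells with DMSO. The lower ones included the targets CHAC1, RRM2B, SESN1, SESN2 and ZMAT3. FOXO1 fell by 2.39 on the log2 scale (adjusted p = 0.0118). DDIT3 and JUN rose. FOXO3 was just under 2-fold lower, at -0.96 (adjusted p = 0.0204). Of the 9 antiapoptotic and related partners BCL2 and BCL2L2 were called higher and BCL2A1, BCL2L1 and BOK lower. BCL2, the target of venetoclax and a partner of BIM, rose from 138 ± 2.95 to 376 ± 41.2 CPM (SD, n = 2; log2 fold change 1.46, adjusted p = 0.00342). APAF1, which builds the apoptosome on cytochrome c, was called higher in FOXM1-KD cells under all 3 treatments, with log2 fold changes of 1.50, 1.58 and 1.46.

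AraC raised 1 member in control cells, BIK, where 6.69% of 22842 genes were called, 4.52% higher and 2.17% lower. BIK had 15 and 9 counts against 1 and 1, a ratio of 10.8 with a 95% counting interval of 2.69 to 94.6 (adjusted p = 0.0191). The call was lost without either AraC library (adjusted p = 0.155 and 0.174), and no gene at all was called in either of those fits. BCL2L11 rose less than 2-fold, from 14.9 and 15.1 to 28.8 and 27.1 CPM, without overlap (log2 fold change 0.89, SE 0.16, adjusted p = 0.00124). BID (49.2 and 48.2 CPM) and BMF (33.4 and 31.0 CPM) also lay above both DMSO libraries, with log2 fold changes of 0.45 (adjusted p = 0.0456) and 0.41 (adjusted p = 0.0922). PMAIP1 (35.9 and 47.3 CPM) and BBC3 (8.32 and 7.70 CPM) did so too. Their log2 fold changes were 0.35 (adjusted p = 0.192) and 0.44 (adjusted p = 0.170). BAX, at 58.3 and 49.4 CPM, overlapped with its DMSO libraries, as did BAD and BAK1, with log2 fold changes of -0.11, 0.11 and 0.13. HRK had 5 and 2 counts against 0 and 2. Of the 24 inducers and other targets of those inducers, 5 were called higher (CDKN1A, GDF15, JUN, TNFRSF10B and TP73) and 1 lower (CHAC1). TP73 rose from 1.43 ± 0.623 to 26.6 ± 2.91 CPM (SD, n = 2; log2 fold change 4.20, adjusted p = 2.02e-08).

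In FOXM1-KD cells AraC raised PMAIP1, BMF and HRK, 3 of the 10 members, where 11.6% of 23381 genes were called, 9.03% higher and 2.57% lower. PMAIP1 went from 60.1 and 41.0 to 131 and 159 CPM (log2 fold change 1.45, SE 0.27, adjusted p = 3.73e-06) and BMF from 15.7 and 6.96 to 51.5 and 42.1 CPM (log2 fold change 1.98, SE 0.30, adjusted p = 1.05e-08). Neither gene's groups overlapped. HRK went from 0 and 0 to 7 and 5 counts, at least 2.13-fold higher against a floor of 3 counts in each library (adjusted p = 0.0440). Without the first or the second FOXM1-KD AraC library no gene of the table was called and these adjusted p-values were 0.399 and 0.310 for PMAIP1, 0.441 and 0.312 for BMF and 0.479 and 0.353 for HRK, while the log2 fold changes of PMAIP1 and BMF were 1.59 and 1.30, and 1.83 and 2.11. HRK also lost its call without either FOXM1-KD DMSO library (adjusted p = 0.150 and 0.169).

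The AraC response itself was compared between FOXM1-KD and control cells with an interaction term over 8 libraries, which include those of the single comparisons. It was called for 3 members, against 5.13% of 26059 genes, 3.94% with a higher and 1.19% with a lower response in FOXM1-KD cells. PMAIP1 and BMF responded more in FOXM1-KD cells, by 1.18 (SE 0.29, adjusted p = 0.00209) and 1.64 (SE 0.33, adjusted p = 5.41e-05) on the log2 scale. BIK responded less, by a log2 difference of -3.24 (SE 1.10, adjusted p = 0.00710), from the low control counts given above. Without the first or second AraC control library none of the 3 was called, with differences of 1.01 and 1.39 for PMAIP1, 1.71 and 1.58 for BMF and -2.76 and -3.62 for BIK. PMAIP1 also lost its call without the second FOXM1-KD DMSO library (0.80) and with all 16 libraries in 1 fit (1.06, adjusted p = 0.298), BMF without the first FOXM1-KD AraC library (1.49, adjusted p = 0.129), and BIK without any 1 of the DMSO control or FOXM1-KD AraC libraries (-3.55 to -2.98) and with filterByExpr (-3.25, adjusted p = 0.104). BID differed by -0.82 (adjusted p = 0.0832), under 2-fold, and by -1.01 (adjusted p = 0.0117) without the first FOXM1-KD DMSO library. BBC3, at 0.43 (adjusted p = 0.852), was called at 1.10 (adjusted p = 0.0688) without that library.

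**Figure D4:**
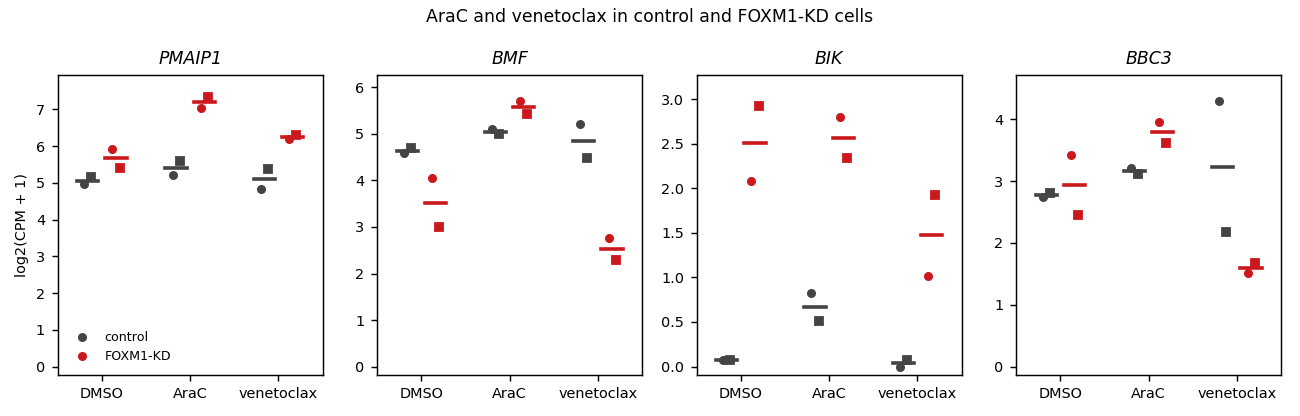
Level of PMAIP1, BMF, BIK and BBC3 as log2(CPM + 1) with DMSO, AraC or venetoclax (horizontal axis) in control (gray) and FOXM1-KD cells (red); circles are replicate 1, squares replicate 2, bars the mean of 2 libraries. BMF lies below the control with DMSO and venetoclax in FOXM1-KD cells and above it with AraC, and BBC3 in the venetoclax control is split between 18.6 and 3.51 CPM.

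Venetoclax lowered 1 member in FOXM1-KD cells, BBC3, where 2.09% of 23717 genes were called, 1.51% higher and 0.578% lower. BBC3 went from 9.73 and 4.48 to 1.84 and 2.21 CPM, without overlap (log2 fold change -1.78, SE 0.45, adjusted p = 0.00790). Without the first FOXM1-KD DMSO library it was -1.13 (adjusted p = 1.00), and without the first or second venetoclax library -1.67 and -1.93 (adjusted p = 0.785 and 0.561). BMF went from 15.7 and 6.96 to 5.81 and 3.88 CPM (log2 fold change -1.20, adjusted p = 0.133) and BIK from 61 and 125 to 15 and 47 counts (log2 fold change -1.33, adjusted p = 0.185), neither with overlap and neither called. With all 16 libraries in 1 fit BMF was called as well (adjusted p = 0.0600). The second venetoclax and the second DMSO library of FOXM1-KD cells correlated most with each other (r = 0.987). With their own replicates they correlated at r = 0.977 and 0.985. Whether labels were exchanged here was not tested either.

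No gene of 22593, and so none of the members, was called for venetoclax in control cells (0%), with 188 genes at an unadjusted p below 0.05 in edgeR's test and 0 called by DESeq2. STL427944 likewise gave no call among 22672 genes (0%), with 281 genes at an unadjusted p below 0.05 and 1 called by DESeq2. Both rest on the libraries that stood together across treatments, and the members showed this split. BBC3 was at 4.28 and 18.5 CPM with STL427944 and at 18.6 and 3.51 CPM with venetoclax, so that 1 library of each treatment was above and 1 below the 5.70 and 5.99 CPM of DMSO. BCL2L11 was at 16.1 and 27.4 CPM with STL427944 and 22.8 and 15.3 CPM with venetoclax, and BMF at 17.6 and 36.0, and 35.9 and 21.4 CPM. The higher value was in the second STL427944 and the first venetoclax library for all 3.

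**Figure D5:**
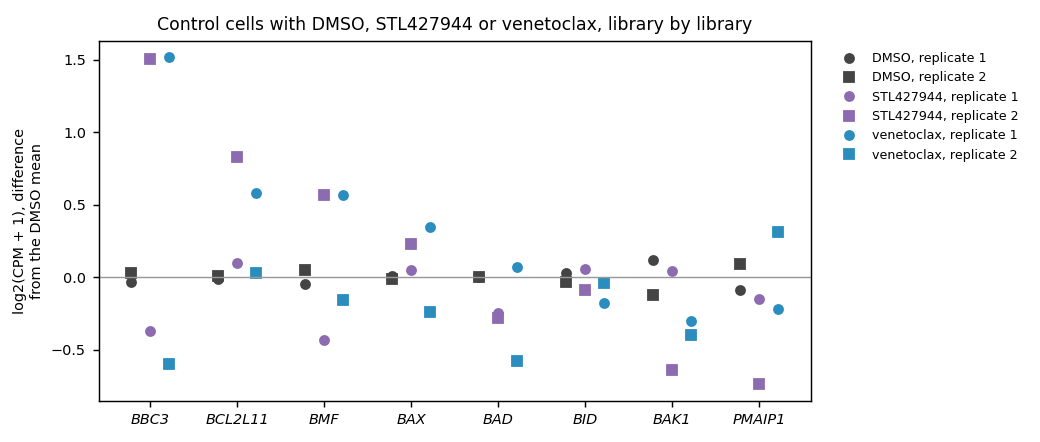
Difference of each of 8 members from the DMSO mean, on the log2(CPM + 1) scale, in each control library given DMSO, STL427944 or venetoclax. BBC3 lies 1.51 above the DMSO mean in the second STL427944 library and 1.52 above it in the first venetoclax library, and 0.37 and 0.60 below it in their replicates.

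Without the second STL427944 library the log2 fold change of BBC3 was -0.46 (adjusted p = 0.759), and without the first it was 1.69 (adjusted p = 0.0874) and passed the threshold. Without the first venetoclax library that of BBC3 with venetoclax was -0.74 (adjusted p = 0.406), against 1.70 (adjusted p = 0.136) without the second and 0.93 (SE 0.68, adjusted p = 1.00) with both. PMAIP1 had log2 fold changes of -0.42 (SE 0.26) with STL427944 and 0.08 (SE 0.27) with venetoclax, and BID of 0.00 (SE 0.20) and -0.10 (SE 0.23). BAX and BAK1 had 0.15 and -0.26 with STL427944 and 0.10 and -0.35 with venetoclax, with adjusted p-values of 0.929 or more. With the first or the second STL427944 library left out the values were -0.74 and -0.17 for PMAIP1, -0.06 and 0.05 for BID, 0.26 and 0.04 for BAX, and -0.63 and 0.03 for BAK1. With the first or the second venetoclax library left out they were 0.31 and -0.20 for PMAIP1, -0.05 and -0.15 for BID, -0.25 and 0.38 for BAX, and -0.42 and -0.28 for BAK1. None of these was called. BIK and HRK had at most 1 count in every library of both treatments.

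The difference in venetoclax response between FOXM1-KD and control cells was called for BBC3, at a log2 difference of -2.71 (SE 0.60, adjusted p = 0.00271), where 0.743% of 26393 genes were called, 0.481% higher and 0.261% lower. It was -1.06 (adjusted p = 1.00) without the first venetoclax control library and -3.47 (adjusted p = 0.0918) without the second. It also lost its call, at -2.85 to -2.05, without either DMSO control library, the first FOXM1-KD DMSO library or either FOXM1-KD venetoclax library, and with DESeq2 (adjusted p = 0.247) and filterByExpr (adjusted p = 1.00). BMF differed by -1.47 (SE 0.50, adjusted p = 0.275), and was called at -1.95 (adjusted p = 0.0631) without the second FOXM1-KD DMSO library.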

How the data were processed

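Counts of 16 libraries were analyzed. The authors used STAR to align reads to hg38 and featureCounts to count them per Ensembl gene, and deposited the counts as whole numbers, not normalized. The sample labels and the study's methods name different library kits, and use of molecular identifiers in counting was not given in the sources used here. Counting intervals therefore cover counting error only.

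After TMM scaling, edgeR's quasi-likelihood test (version 4.0.16, R 4.3.3, prior count 0.125) was fitted to the 4 libraries compared, or 8 for interactions. Every gene with a count entered, and p-values were adjusted by Benjamini-Hochberg. All 10 members were tested in all 11 comparisons. CPM used the TMM factors of all 16 libraries, so ratios of CPM differ slightly from fitted fold changes. Standard errors come from the quasi-likelihood fit. Calls needed at least 2-fold and an adjusted p below 0.1, the study's thresholds, in each comparison. Totals of 7351755 to 21362546 counts limit low genes most with MK-2206. Replicates differed by more than sampling noise (chi-square per degree of freedom 8.58 to 103). The study calls them biological replicates but does not say whether they were separate cultures, so p-values measure the spread between these libraries.

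Libraries numbered alike deviated together from their group means (10 pairs of the 5 numbered groups, r from 0.465 to 0.758). In each of these groups the first library also had the lower total and the lower mitochondrial share. Whether the numbers pair samples was not tested. DMSO and STL427944 libraries carry no number. Alternatives were DESeq2 1.42.0, its size factors in edgeR, total counts only, filterByExpr, all 16 libraries in 1 fit, adjusted p below 0.05, a prior count of 2, the adjusted p across all 8 groups, the replicate block, and leaving out each library. Promoter windows were RefSeq's (GRCh38.p14), matched for 9 of 10 members. Named genes were the members, FOXM1, and genes of the partner, mitochondrial, inducer and marker lists; up to 2 genes most like each member are given at the end. The members and lists were chosen with earlier results of these data known. The test was tested on data simulated for FOXM1-KD against control with DMSO. Of 200 genes given changes well beyond the 2-fold threshold it recovered 64%, and 0% of its calls were false. Only genes above a minimum expected count in control cells were given changes. Recovery of changes near 2-fold, or in genes counted as sparsely as BIK and HRK, was not tested. A gene not called may therefore still have changed. Some named items are not reported here.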

Additional observations from a re-analysis of the deposited data

Results flagged for a closer look

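The response to AraC differed between FOXM1-KD and control cells in edgeR's interaction test for 3 members. The log2 difference was 1.18 for PMAIP1 (standard error 0.29, adjusted p = 0.00209), 1.64 for BMF (standard error 0.33, adjusted p = 5.41e-05) and -3.24 for BIK (standard error 1.10, adjusted p = 0.00710). None of the 3 was called without the first or without the second AraC control library, with differences of 1.01 and 1.39 for PMAIP1, 1.71 and 1.58 for BMF and -2.76 and -3.62 for BIK. For PMAIP1 and BMF both FOXM1-KD libraries rose above both of their DMSO libraries, while for BIK the control libraries rose from 1 count each to 15 and 9. The response to venetoclax differed for BBC3, by -2.71 on the log2 scale (standard error 0.60, adjusted p = 0.00271), and by -1.06 (adjusted p = 1.00) without the first venetoclax control library.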

How the results depend on the processing

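MK-2206 kept its 5 calls with each library left out, FOXM1-KD with AraC its 3 and venetoclax in control cells its 0, while FOXM1-KD gave 2 to 4 with DMSO and 5 to 6 with venetoclax. Left-out libraries moved the count of members called to 0 to 1 for STL427944, 0 to 1 for AraC and 0 to 3 for AraC in FOXM1-KD cells, 0 to 1 for venetoclax in FOXM1-KD cells, and 0 to 5 and 0 to 2 for the differences in AraC and venetoclax response. Fits with 3 libraries have less power. The replicate block, possible for FOXM1-KD against control with AraC and with venetoclax, left the counts at 3 and 7 and changed no call. With filterByExpr and with DESeq2 AraC in control cells and the difference in venetoclax response gave 0 calls. In the first, BIK was filtered out or had no adjusted p. With all 16 libraries in 1 fit venetoclax in FOXM1-KD cells gave 2. The adjusted p across all 8 groups gave 1 call for STL427944, 2 for AraC in control cells, 5 for FOXM1-KD with DMSO and 4 for venetoclax in FOXM1-KD cells, since it tests any difference between conditions.

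Changes of direction occurred in uncalled values. BID with MK-2206 was 0.06 with filterByExpr and 0.01 with DESeq2, and BIK with AraC in FOXM1-KD cells 0.13 with total counts only. With each library left out, the log2 fold changes ranged as follows. With MK-2206 BAD ran from -0.02 to 0.50 and BID from -0.43 to 0.12. With STL427944 BBC3 ran from -0.46 to 1.69, BMF from -0.46 to 0.62, BAK1 from -0.63 to 0.03 and BIK from -0.04 to 0.33. With AraC in control cells BAD ran from -0.17 to 0.38, BAK1 from -0.04 to 0.31 and BAX from -0.23 to 0.03. With venetoclax in control cells BBC3 ran from -0.74 to 1.70, PMAIP1 from -0.20 to 0.31, BMF from -0.17 to 0.62, BAX from -0.25 to 0.38, BAD from -0.62 to 0.11 and HRK from -3.22 to 2.36. FOXM1-KD gave -0.40 to 0.73 for BBC3 and -0.28 to 0.09 for BAX with DMSO, -0.17 to 0.45 for BAD and -0.11 to 0.28 for BAX with AraC, and -0.26 to 0.84 for BAD, -0.24 to 0.42 for BAX and -0.02 to 3.29 for HRK with venetoclax. AraC in FOXM1-KD cells gave -0.17 to 0.24 for BAX, -0.23 to 0.26 for BAK1, -0.04 to 0.26 for BCL2L11 and -0.50 to 0.56 for BIK, and venetoclax there -0.08 to 0.55 for BAX. The differences in response ran from -0.29 to 0.23 for BAK1 and -0.16 to 1.10 for BBC3 with AraC, and from -1.41 to 1.76 for BIK and -0.18 to 0.51 for BAX with venetoclax. Apart from those with a stated cause, the cause was not tested. Depth limits BIK and HRK most.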

Other observations

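For each member with at least 10 counts in 8 or more libraries, protein-coding genes with the most similar profiles, up to 2 each, over the 16 libraries were found by Pearson's r of log2(CPM + 1) among 12223 genes. The libraries share conditions and depth, so r is a description. For BCL2L11 they were NBPF26 (r = 0.991) and MPP3 (r = 0.988), for PMAIP1 PHLDA2 (r = 0.985), for BIK SRGAP2 (r = 0.976) and C3orf80 (r = 0.967), and for BID IMPDH1 (r = 0.972) and TCOF1 (r = 0.963). NBPF26 and SRGAP2 belong to families of near-identical copies, so their counts are uncertain. BAX was most like AP5S1 (r = 0.958) and RHOG (r = 0.922), and BAK1 most like TUSC2 (r = 0.955) and CD2BP2 (r = 0.940). For BMF they were TMEM140 (r = 0.940) and TM6SF1 (r = 0.928), for BBC3 HDAC5 (r = 0.913) and EBF4 (r = 0.910), and for BAD LMF2 (r = 0.874) and RHBDD2 (r = 0.869).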
